A study of Mus musculus with 6 samples.

Results

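Kinesins are the motor proteins that walk along microtubules, together with the light chains that couple the conventional motor to its cargo. The protein-coding genes of the deposited count table were searched by symbol for numbered Kif and Klc genes and for Kifc1, Kifc2 and Kifc3, which gave 46 genes of the 56748 in the table. Of these, 38 had a mean of at least 0.5 CPM (counts scaled to the same library size) over the 6 libraries and make up the set described here, and all 38 passed the filter on low counts. The level was taken over all 6 libraries without regard to exposure. Klc3 reached it only through the MeHg libraries, with scaled means of 0.40 CPM in controls and 2.04 CPM in MeHg. The kinesins Cenpe and Stard9, whose symbols do not match, were not included.

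RNA was sequenced from the whole cerebellum of adult C57BL/6J mice aged 90 to 120 days. The dams of 3 mice had drunk water with 0.2 ppm methylmercury (MeHg, given as the chloride), an organic mercury compound that passes the placenta, from the first day of pregnancy to birth, and the dams of 3 control mice had water with 0 ppm. The labelled exposure ended at birth. No litter is given, and each p-value is therefore read against the variation among these 6 libraries only, which may be shared within litters. Total counts were 14116088 to 20303833 per library. In bulk tissue, fewer cells of a type and less RNA per cell cannot be told apart.

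The libraries carried the markers of cerebellum: Gabra6 of granule cells was at 435 to 797 CPM and Pcp2 of Purkinje cells at 202 to 317 CPM. Control replicate 2 is labelled female, but had Xist at 0.249 CPM and Ddx3y at 87.2 CPM, the levels of the libraries labelled male. By these genes control replicates 2 and 3 and MeHg replicate 2 (Xist 0.131 CPM, Ddx3y 86.5 CPM) were male-like, and the others female-like. A fit without MeHg replicate 2 thus sets female-like MeHg libraries against controls of both kinds. Exposure and sex cannot be fully told apart in it. MeHg replicate 2 stood apart in 8 brainstem and midbrain neuron markers, whose summed level was 231 CPM there and 15.1 to 25.7 CPM in the other 5 libraries.

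Kinesin-1 is a tetramer of Kif5 heavy chains and Klc light chains that carries vesicles, mitochondria and RNA granules down the axon. Kinesin-3 motors such as Kif1a carry synaptic vesicle precursors, the kinesin-2 motor of Kif3 subunits works in neurites and in cilia, and other families depolymerise microtubules or build the mitotic spindle. In an adult neuron the transport families dominate, and the ciliated ependymal cells next to the cerebellum use kinesins of their own.

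Levels were compared between genes per length, as FPKM (the authors' values, scaled to gene length and library size), and ran from 0.137 to 151 FPKM as means of 6 libraries. Kif5a, the neuronal heavy chain of kinesin-1, was the highest, above 99.2% of all genes tested. Kif5c followed at 120 FPKM, Kif1a at 105 FPKM, the light chains Klc1 and Klc2 at 100 and 63.1 FPKM, and Kif1b at 52.9 FPKM. In controls Kif5a (134 to 145 FPKM) lay just above Kif5c (128 to 133 FPKM). Klc1 (98.1 to 104 FPKM over the 6 libraries) and Kif1a (95.7 to 119 FPKM) overlapped, so their order is not clear, whereas Klc1 lay apart from Klc2 (61.0 to 64.4 FPKM) in every library. Next came Kifc2, a minus-end directed motor of neurons, at 47.7 FPKM, the ubiquitous heavy chain Kif5b at 39.2 FPKM, the kinesin-2 subunit Kif3a at 32.2 FPKM and Kif21a, which restrains microtubule growth, at 30.6 FPKM.

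**Figure D1:**
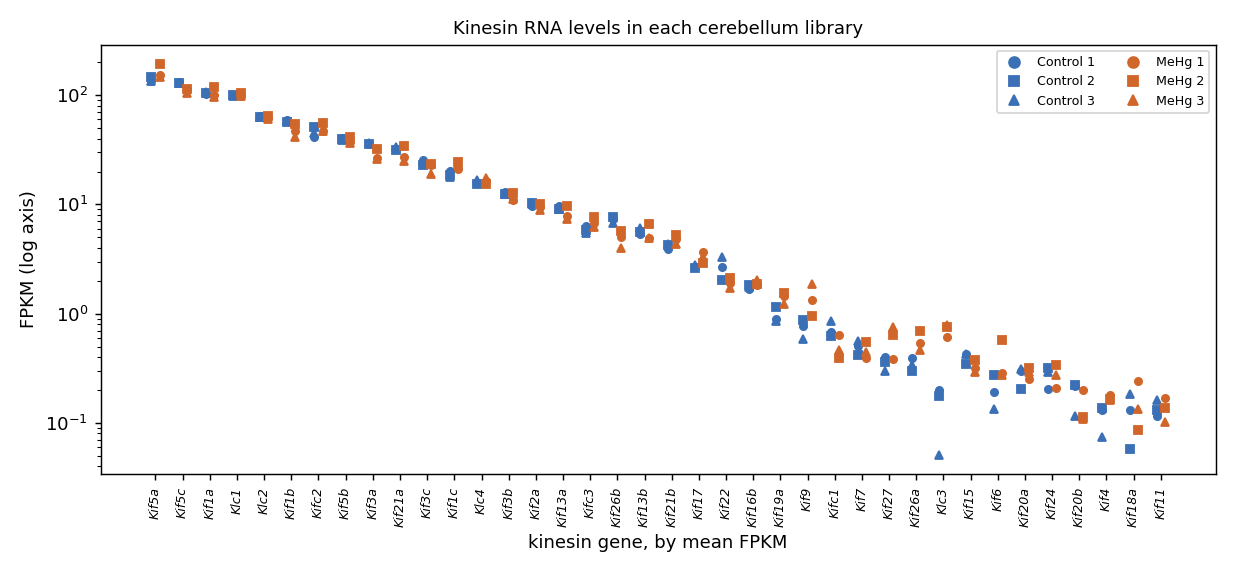
FPKM (log axis) of the 38 kinesin genes in each library, ordered by mean FPKM, with controls in blue, MeHg in orange and symbols for replicates 1 to 3. Kif5a leads at a mean of 151 FPKM, and the mitotic kinesins Kif18a and Kif11 lie at the low end, near 0.14 FPKM.

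Few kinesin RNAs passed a test for a difference with exposure. By edgeR's quasi-likelihood test over all 16859 genes, 1 of the 38 kinesins rose in MeHg at an adjusted p under 0.05 (background 0.575% of all genes tested) and 0 fell (background 1.79%, or 2.36% in either direction). The 1 that rose was Klc3, which is in the set only through its MeHg libraries. Its place in the counts of higher kinesins here is thus tied to how the set was chosen. At an unadjusted p under 0.05, 9 kinesins were higher (background 11.8%) and 5 lower (background 12.7%). The median log2 fold change of the 38 was 0.02, and that of all genes tested 0.01. In 10 kinesins all 3 MeHg libraries lay above all 3 controls (background 13.9%) and in 4 they lay below (background 15.5%). DESeq2 called 7 kinesins (3 higher, 4 lower, background 8.27% in either direction). The higher ones were Klc3, Kif1c and Kif9, and the lower ones Kif26b, Kif3a, Kif5c and Kif1b. Kif26b (DESeq2 adjusted p = 0.000528) had a smaller value than Klc3 (0.00229). By edgeR 7 passed without MeHg replicate 2 (2 higher, 5 lower, background 6.33% in either direction), and 0 passed without any 1 of the other 5 libraries. The fit without MeHg replicate 2 leaves only female-like MeHg libraries, so exposure and sex cannot be fully told apart in it. Over the whole table those 5 fits called 220 of 17108 genes without control replicate 2, 2 without MeHg replicate 1 and 0 in the others.

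**Figure D2:**
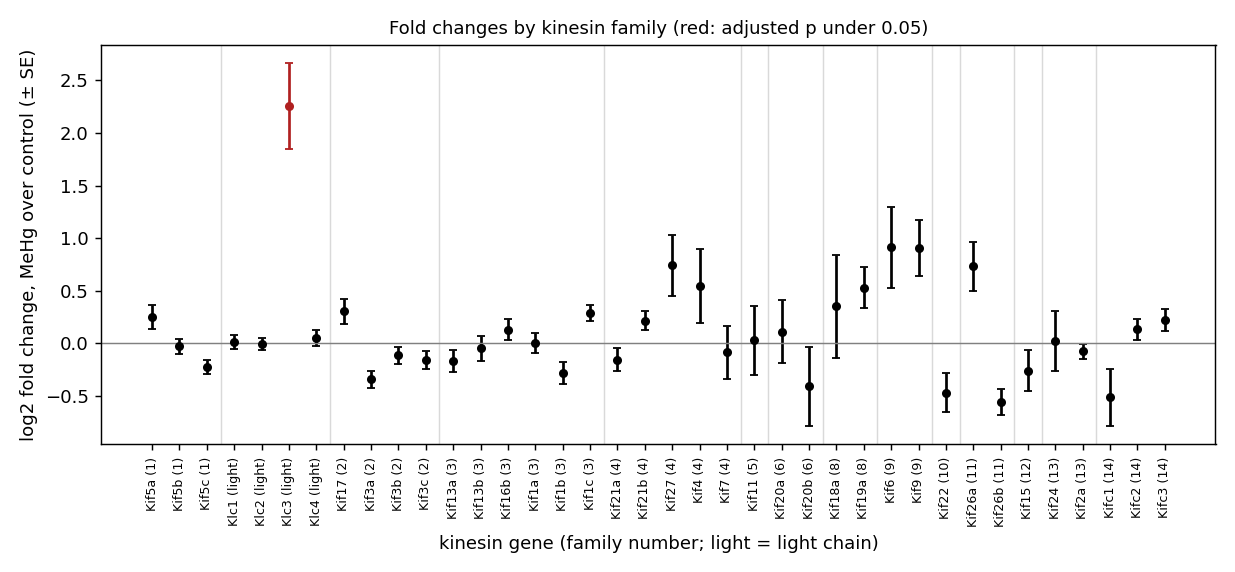
Log2 fold change of MeHg over control with its SE for the 38 kinesin genes, ordered by family, with the called gene in red. Klc3 stands at 2.26, the light chains beside it lie near 0, and Kif26b has the lowest value at -0.56.

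The gene that rose was the light chain Klc3 (ENSMUSG00000040714, chromosome 7, 19128362 to 19138029, minus strand, mm39), best known from sperm cells, where its protein associates with mitochondria of the tail. It had 11, 10 and 2 counts in control replicates 1, 2 and 3 and 28, 33 and 33 counts in the MeHg replicates. In CPM this was 0.558, 0.499 and 0.144 against 1.73, 2.16 and 2.22. The control mean lay under the level of 0.5 CPM, so Klc3 is in the set through its MeHg libraries. The groups did not overlap, and the mean went from 0.40 ± 0.224 CPM (SD, n = 3) to 2.04 ± 0.268 CPM, a log2 fold change of 2.26 ± 0.41 (SE, edgeR adjusted p = 0.0431). That adjusted p was the lowest over all genes tested, but it was a tied value, and Klc3 was not the gene with the smallest p. Reln, Foxj1 and Gabra6 had the same adjusted p with smaller edgeR unadjusted p-values (4.89e-05, 0.000111 and 0.000284, against 0.000347 for Klc3). Klc3 made up 0.0286% to 0.110% of the summed light chain FPKM in controls and 0.342% to 0.445% in MeHg. Its adjusted p was 0.0585 to 0.207 when any library other than MeHg replicate 2 was left out, and 0.0731 with an offset for gene length.

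The 3 abundant light chains did not pass the test. Klc1, the main neuronal light chain, was at 681, 685 and 669 CPM in controls and 673, 714 and 664 CPM in MeHg (0.01 ± 0.07, adjusted p = 0.937). Klc2 was at 279 ± 2.52 CPM in controls and 278 ± 9.53 CPM in MeHg (-0.01 ± 0.06, adjusted p = 0.966). Klc4 was at 40.3 ± 1.5 and 41.7 ± 2.42 CPM (0.05 ± 0.08, adjusted p = 0.737). For each of the 3, the groups overlapped and the SE was under 0.1 on the log2 scale.

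Klc3 shares 1258 bases with Ercc2, a DNA repair helicase gene on the opposite strand. Ercc2 was at 27.2, 27.3 and 32.3 CPM in controls and 25.8, 24.5 and 25.6 CPM in MeHg (-0.19 ± 0.10, adjusted p = 0.270). Strand handling is not given in the sources used here, and reads of such pairs cannot then be told apart. Of the 38 kinesins, 12 overlapped an opposite-strand gene of at least 0.5 CPM, among them Klc1 with Xrcc3, Kif2a with Dimt1 and Kif20a with Cdc23.

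Other low-abundance kinesins with roles in motile cilia, Kif9, Kif6, Kif27 and Kif19a, had higher means in MeHg, and 0 of the 4 passed the test over all genes. They were grouped after their values were seen, so their shared direction is a description. Kif9, a motor of the ciliary central apparatus (chromosome 9, 110306026 to 110354247, plus strand), was at 3.50, 3.99 and 2.66 CPM in controls and 6.18, 4.45 and 8.56 CPM in MeHg. All MeHg libraries lay above the controls (0.91 ± 0.27, adjusted p = 0.0925), and without MeHg replicate 2 Kif9 passed (1.12 ± 0.24, adjusted p = 0.0274). It did not pass when any other library was left out instead. Kif6, the other kinesin-9 and a gene of ependymal cilia, was at 1.22, 1.75 and 0.862 CPM in controls and 1.85, 3.73 and 1.75 CPM in MeHg (0.91 ± 0.39, adjusted p = 0.191). Here MeHg replicate 2 stood above the rest, and MeHg replicate 3 was barely above control replicate 2.

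Kif27, a relative of Kif7 needed for motile cilia, was at 2.23, 2.00 and 1.65 CPM in controls and 2.16, 3.60 and 4.18 CPM in MeHg, so that MeHg replicate 1 fell among the controls (0.74 ± 0.29, adjusted p = 0.161). Kif19a, a kinesin-8 that limits the length of cilia, was at 3.85, 5.04 and 3.74 CPM in controls and at 6.24, 6.74 and 5.33 CPM in MeHg (0.53 ± 0.19, adjusted p = 0.142). Its groups did not overlap. Kif7, which works at the tip of the primary cilium in Hedgehog signalling, was at 2.42 ± 0.348 CPM in controls and 2.27 ± 0.428 CPM in MeHg, and its groups overlapped.

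Markers of ependymal cells, like the means of Klc3, Kif9, Kif6, Kif27 and Kif19a, were higher in MeHg than in controls. The summed level of 8 ependymal markers was 26.1, 36.4 and 25.6 CPM in controls and 51.9, 60.5 and 77.4 CPM in MeHg, none of the 8 was at 0 in any library, and 2 of them rose, Foxj1 (1.17 ± 0.18, adjusted p = 0.0431) and Rsph1 (1.68 ± 0.32, adjusted p = 0.0433). The summed level of 8 choroid plexus markers ran from 25.6 to 1964 CPM in controls and from 1629 to 6976 CPM in MeHg, with Kcne2 at 0 in a control library. Within MeHg the ependymal sum was highest in replicate 3. Klc3 (2.22 CPM, against 2.16 CPM in replicate 2), Kif9 and Kif27 were also highest there, but Kif6 and Kif19a were lowest. The part of either cell type in the kinesin values was not tested.

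**Figure D3:**
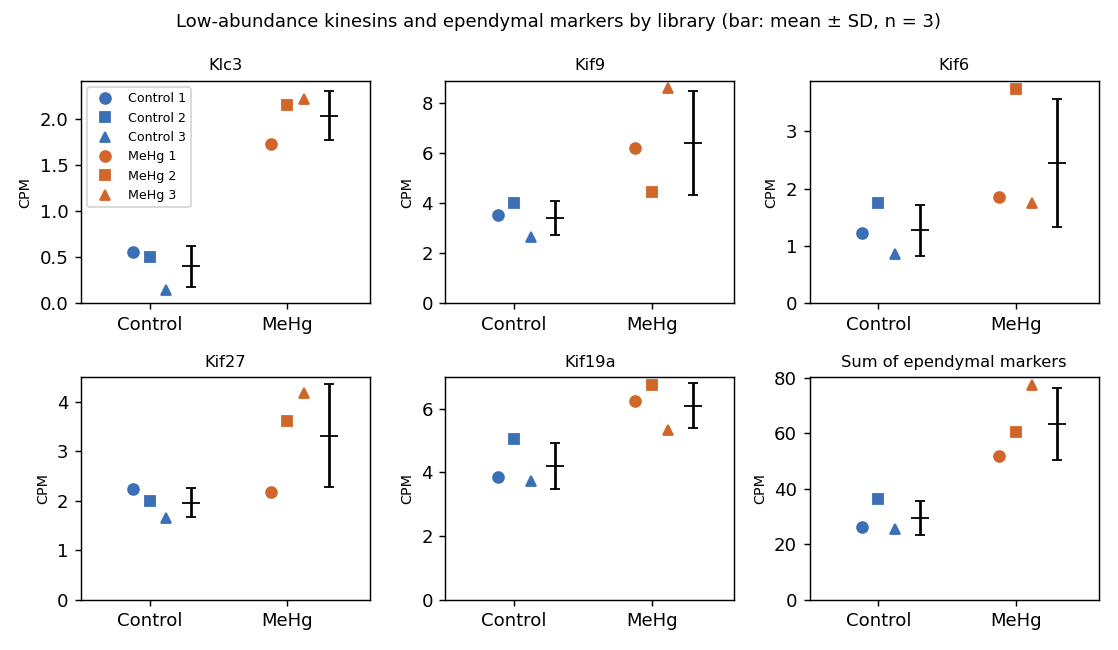
CPM of Klc3, Kif9, Kif6, Kif27 and Kif19a and the summed CPM of 8 ependymal markers in each library, with the mean ± SD of each group (n = 3). Klc3 and the marker sum separate the groups, while Kif27 in MeHg replicate 1 (2.16 CPM) lies within the control range.

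The RefSeq promoter windows of these genes are shown because RFX factors, which drive ciliary genes, bind sites built around GTTGCC. Among 29 kinesins with a start in the RefSeq promoter table (GRCm38.p6), 8 (27.6%) had GTTGCC, or GGCAAC on the other strand, in the 250 bases before a start, against 11.8% of the 27025 genes in that table. The motif was picked after the Kif9 sequence had been seen, a match is not a binding site, and the share is a description. The 27025 genes were not filtered on level as the kinesins were, and Kif9 is counted among the 8. The 8 genes were Klc3, Kif9, Kif3a, Kif3c, Kif17, Kif16b, Kif18a and Kif24, of which Kif3a and Kif3c had negative fold changes and the other 6 positive ones; Klc3 alone of the 8 passed the test. Kif27 and Kif6 had none in this window, and Kif19a had no start in that table. The 250 bases before the Klc3 start (found in GRCm39 at chr7:19138030-19138279, minus strand) follow, with the motif in capitals.
Klc3: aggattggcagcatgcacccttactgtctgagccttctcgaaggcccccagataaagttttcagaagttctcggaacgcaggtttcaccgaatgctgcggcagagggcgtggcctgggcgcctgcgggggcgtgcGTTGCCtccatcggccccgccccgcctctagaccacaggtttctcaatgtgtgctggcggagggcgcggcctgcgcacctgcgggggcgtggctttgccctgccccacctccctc

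The stretches of 30 bases around the match in Kif9 (chr9:110306023-110306052, plus strand) and in the kinesin-2 genes Kif3a (chr11:53458086-53458115, plus strand), Kif3c (chr12:3414944-3414973, plus strand) and Kif17 (chr4:137989477-137989506, plus strand) are given to show the match in its context. The Kif9 match lies just inside the gene span of the deposited table, and the Kif17 stretch lies well inside its span, which starts at 137977746, so neither lies before the gene as listed there.
Kif9: tgcaggcttcctGTTGCCatggcgactgtg
Kif3a: caccccgcaggcGTTGCCccagtctagcgt
Kif3c: ccgagaatggcgGTTGCCgagagaacacgc
Kif17: gacgtcacggagGTTGCCcagcaacggcga

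The heavy chains of kinesin-1 had unlike differences, and none of the 3 passed the test. Kif5a, mutated in human spastic paraplegia, was at 997, 1084 and 1013 CPM in controls and 1133, 1453 and 1093 CPM in MeHg. All MeHg libraries lay above the controls, and MeHg replicate 2 was the highest by far (0.25 ± 0.11, adjusted p = 0.210). Kif5c, the other neuronal heavy chain, was at 1009, 981 and 974 CPM in controls and 863, 876 and 799 CPM in MeHg, with all MeHg libraries below the controls (-0.22 ± 0.07, adjusted p = 0.107). By DESeq2 Kif5c passed (adjusted p = 0.0184). Kif5b, the heavy chain of all cell types, was at 337 ± 7.77 CPM and 331 ± 26.0 CPM (-0.03 ± 0.07, adjusted p = 0.853).

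As a share of the summed FPKM of the 3 heavy chains, Kif5a made up 43.64%, 46.28% and 44.95% in controls and 50.2%, 55.3% and 50.9% in MeHg, a difference of 7.17 percentage points (exact permutation test, two-sided p = 0.1, below which 3 libraries a group cannot go, and 0.183 after Benjamini-Hochberg adjustment over 11 shares and ratios). Kif5c made up 43.2%, 41.0% and 42.3% in controls and 37.4%, 32.6% and 36.4% in MeHg. The groups did not overlap for either gene, and without MeHg replicate 2 the MeHg mean of Kif5a was 50.5%. The ratio of summed heavy to summed light chain FPKM was 1.70 to 1.75 in controls and 1.63 to 1.89 in MeHg, and the groups overlapped (exact permutation p = 1). Kif5a, Kif5b and Kif5c have similar lengths in the deposited table, 6990, 7981 and 7142 bases.

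**Figure D4:**
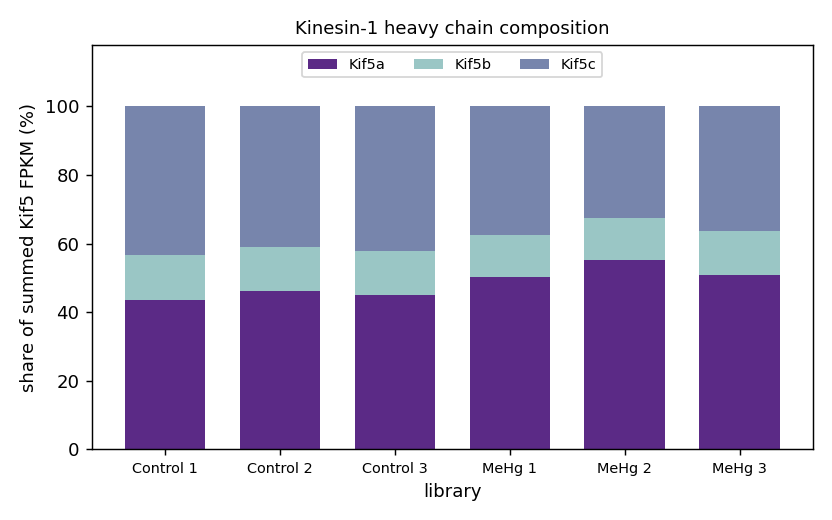
Share (%) of Kif5a, Kif5b and Kif5c in their summed FPKM in each library. Kif5a takes 43.6% to 46.3% in controls and 50.2% to 55.3% in MeHg, and Kif5c 41.0% to 43.2% and 32.6% to 37.4%.

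In the kinesin-2 family, which pairs Kif3a with Kif3b or Kif3c and also holds Kif17, the subunits had unlike values, and none passed the test. Kif3a (chromosome 11, 53458206 to 53492794, plus strand) was at 136, 136 and 141 CPM in controls and 103, 123 and 99.7 CPM in MeHg. Every MeHg library was below every control, at a log2 fold change of -0.34 ± 0.08 that missed the threshold (adjusted p = 0.0611). Without MeHg replicate 2 Kif3a passed (-0.43 ± 0.06, adjusted p = 0.00804), as it did with the labelled sex in the model (adjusted p = 0.0406), a label that control replicate 2 goes against. With any other library left out instead, Kif3a did not pass. Its partners Kif3b (-0.11 ± 0.08, adjusted p = 0.402) and Kif3c (-0.16 ± 0.09, adjusted p = 0.304) had groups that overlapped. Kif3a made up 48.2% to 50.0% of the summed Kif3 FPKM in controls and 44.4% to 46.7% in MeHg (exact permutation p = 0.1, adjusted 0.183).

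Kif17, a dendritic motor for glutamate receptors, had a higher mean in MeHg, at 12.9, 12.9 and 13.5 CPM in controls and 17.9, 14.5 and 16.0 CPM in MeHg (0.30 ± 0.12, adjusted p = 0.160). Its groups did not overlap. Kif17 shares 10898 bases with Sh2d5 on the same strand, which was at 0.27 ± 0.18.

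Among the kinesin-3 motors, Kif1a, the chief carrier of synaptic vesicle precursors, was at 1024, 1044 and 1072 CPM in controls and 996, 1203 and 950 CPM in MeHg (0.00 ± 0.10, adjusted p = 0.985). The MeHg libraries lay on both sides of the controls. Kif1b, whose isoforms carry mitochondria or synaptic vesicle precursors, was at 1130, 1071 and 1105 CPM in controls and 890, 1046 and 789 CPM in MeHg, all below the controls (-0.28 ± 0.10, adjusted p = 0.147). Kif1b has the greatest gene length of the set in the deposited table, 17809 bases, and with an offset for length its value was -0.09 ± 0.08 (adjusted p = 0.544). It passed without MeHg replicate 2 (-0.38 ± 0.08, adjusted p = 0.0231) and by DESeq2 (adjusted p = 0.0447), but not when any other library was left out instead. Kif1c, mutated in human spastic ataxia, was at 157, 144 and 139 CPM in controls and 165, 193 and 180 CPM in MeHg, all above the controls (0.29 ± 0.08, adjusted p = 0.0725). With the length offset Kif1c was at 0.35 ± 0.07 (adjusted p = 0.0804). Kif13a was at 85.3, 79.9 and 79.9 CPM in controls and 68.4, 86.2 and 63.8 CPM in MeHg (-0.17 ± 0.11, adjusted p = 0.371). It passed without MeHg replicate 2 (-0.30 ± 0.07, adjusted p = 0.0407), but not when any other library was left out instead.

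The kinesin-11 genes Kif26a and Kif26b, atypical members not thought to hydrolyse ATP, had differences of opposite sign. Kif26b (chromosome 1, 178356690 to 178766765, plus strand) had the second smallest p of the 38. It was at 116, 119 and 106 CPM in controls and 79.8, 89.8 and 61.9 CPM in MeHg, with no overlap, a log2 fold change of -0.56 ± 0.12 (adjusted p = 0.0507). It passed without MeHg replicate 2 (-0.67 ± 0.10, adjusted p = 0.0115), and was -0.40 ± 0.10 (adjusted p = 0.101) with an offset for length. When any other library was left out instead, Kif26b did not pass. Kif26a was at 2.89, 2.19 and 2.52 CPM in controls and 3.96, 5.23 and 3.44 CPM in MeHg, also with no overlap (0.73 ± 0.24, adjusted p = 0.112).

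Markers of granule cells, like Kif3a, Kif5c, Kif1b and Kif26b, were lower in MeHg than in controls. The summed level of 8 of them was 6806, 6500 and 6341 CPM in controls and 5326, 4626 and 5022 CPM in MeHg, none was at 0 in any library, and 5 of the 8 fell. Within MeHg the orders differed: the granule sum was lowest in replicate 2, where each of the 4 kinesins was highest. The 6 Purkinje cell markers summed to 7011 to 7815 CPM in controls and 5368 to 6969 CPM in MeHg, and 0 passed by edgeR (2 at an unadjusted p under 0.05). The part of these cells in the kinesin values was not tested.

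Kinesins that regulate microtubule ends and the minus-end directed motors did not pass the test. Kif21a was at 223 ± 6.04 CPM in controls and 200 ± 35.2 CPM in MeHg (-0.16 ± 0.11, adjusted p = 0.417). Without MeHg replicate 2 it passed (-0.30 ± 0.06, adjusted p = 0.0284), but not when any other library was left out instead. Its relative Kif21b was at 54.0 ± 2.74 and 62.7 ± 6.53 CPM, with all MeHg libraries above the controls (0.22 ± 0.09, adjusted p = 0.178). With an offset for length Kif21b was at 0.35 ± 0.07 (adjusted p = 0.0833). The depolymerase Kif2a was at 68.4 ± 2.19 and 64.9 ± 4.65 CPM (-0.08 ± 0.07, adjusted p = 0.559). The minus-end motors Kifc2 (0.13 ± 0.10, adjusted p = 0.440) and Kifc3 (0.22 ± 0.11, adjusted p = 0.241) had groups that overlapped. The kinesin-3 motors Kif13b (79.4 ± 5.26 and 76.7 ± 14.5 CPM) and Kif16b (16.9 ± 0.869 and 18.6 ± 0.937 CPM), and the low genes Kif24 (2.33 ± 0.535 and 2.37 ± 0.576 CPM) and Kif18a (1.30 ± 0.673 and 1.62 ± 0.829 CPM), also had overlapping groups.

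Kinesins of the mitotic spindle lay mostly near the lower limit of the set. The chromosome-binding motor Kif22 was the most abundant, at 13.8, 10.6 and 17.4 CPM in controls and 9.89, 11.3 and 8.97 CPM in MeHg (-0.47 ± 0.19, adjusted p = 0.173). The spindle motors Kif15 (-0.26 ± 0.20) and Kif11 (0.03 ± 0.33), the cytokinesis motors Kif20a (0.11 ± 0.30) and Kif20b (-0.41 ± 0.38), and Kifc1 (-0.51 ± 0.27) had overlapping groups and none passed. Kif4, on the X chromosome, was at 0.761, 0.798 and 0.431 CPM in controls and 1.05, 0.981 and 0.944 CPM in MeHg (0.55 ± 0.35, adjusted p = 0.378). Of 16 markers of cycling cells 9 had enough counts to test, 0 passed by edgeR (2 lower at an unadjusted p under 0.05), and their summed level was 24.8, 21.6 and 21.6 CPM in controls and 18.8, 19.6 and 17.9 CPM in MeHg. Every MeHg sum lay below every control, though of the 9 markers tested 4 had positive fold changes and 5 negative ones. The mitotic kinesins also went both ways. Kif22, Kif15, Kif20b and Kifc1 had negative fold changes, and Kif4, Kif18a, Kif20a and Kif11 positive ones. The part of cycling cells in those values was not tested. Aurkb, Birc5 and Ube2c were at 0 in a library, and the smallest p-values were those of Bub1b (-0.81 ± 0.29, adjusted p = 0.134) and Prc1 (-0.48 ± 0.19, adjusted p = 0.171).

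Just inside the level of 0.5 CPM lay Kif4, Kif11 and Kif20b, with means of 0.828, 1.09 and 1.21 CPM before scaling. Just outside lay Kif23, Kif14 and Kif18b at 0.382, 0.362 and 0.139 CPM. Kif14 had 8, 7 and 12 counts in controls and 5, 3 and 1 in MeHg. Of the 8 genes outside the level, 2 had no count in any library, Kif28 and Kif2b.

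The MeHg libraries differed among themselves in kinesin levels. MeHg replicate 2 held the highest value of 18 of the 38 genes, where it held that of 22.7% of all genes tested. MeHg replicate 3 held the lowest value of 17 of the 38, against 21.7% of all genes. The summed kinesin level was 6952 to 7000 CPM in the 3 controls, but 6563, 7574 and 6213 CPM in MeHg replicates 1, 2 and 3. The MeHg libraries lay on both sides of the controls. MeHg replicate 2 also had the highest sum of 6 oligodendrocyte markers, 7471 CPM against 4807 to 5968 CPM in the other 5 libraries, beside the brainstem markers given above. The part of these cells in the kinesin values was not tested.

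**Figure D5:**
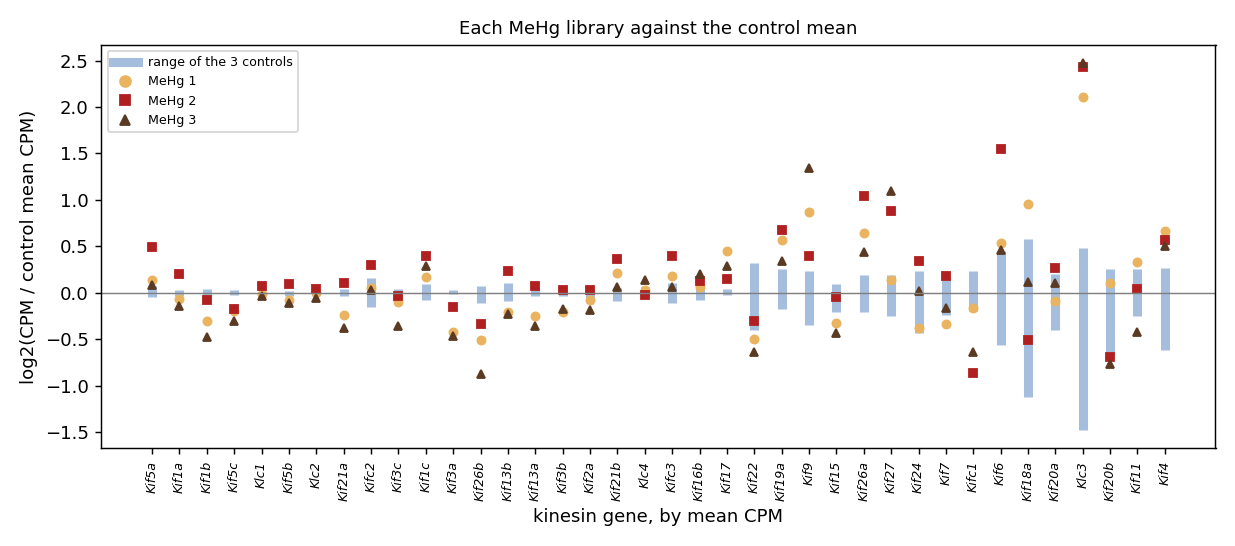
Log2 ratio of the CPM in each MeHg library to the control mean for the 38 kinesins, ordered by mean CPM, with the range of the 3 controls as a blue bar. MeHg replicate 2 (squares) lies above replicates 1 and 3 for most abundant genes, such as Kif5a, Kif1a and Kif13a.

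Fold changes over all genes also moved with gene length. The 38 kinesins have a median length of 6434.5 bases in the deposited table, against 4105 for all genes tested. Of the 19 kinesins above that median 10 had negative fold changes, and of the other 19, 7 had. Over all genes the share of negative values was 65.5% above that length and 43.3% at or below it. With a loess offset for length the median of the 38 kinesins was 0.10 and edgeR called 0 genes (3583 at an unadjusted p under 0.05, 15 of them kinesins).

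Other genes of microtubule transport were read from lists, and 5 of them passed the test. Over all genes tested, 0.575% passed as higher and 1.79% as lower. Upper-quartile scaling called 1 gene of these lists, and the length offset 0. Of 30 kinesin adaptors and regulators, 3 fell and 0 rose (median log2 fold change -0.03). All 3 were liprins, scaffold proteins of the synapse that bind Kif1 motors. Ppfia4 was at 371, 362 and 385 CPM in controls and 299, 301 and 267 CPM in MeHg (-0.37 ± 0.07, edgeR adjusted p = 0.0433), and Ppfia1 (-0.34 ± 0.07) and Ppfia2 (-0.31 ± 0.06) had the same adjusted p. In each of the 3 every MeHg library lay below every control, whereas the liprin Ppfia3 was at 0.01 ± 0.06 with overlapping groups.

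Of 28 genes of dynein and dynactin, the motor complex that runs the other way along microtubules, 1 fell and 0 rose (median -0.02). It was Bicd1, an adaptor that links dynein to cargo, at 72.4, 67.9 and 72.6 CPM in controls and 56.7, 56.3 and 51.5 CPM in MeHg (-0.37 ± 0.07, adjusted p = 0.0433). Of 27 microtubule-associated proteins 1 rose and 0 fell (median -0.08), the tubulin-binding stathmin Stmn4, at 76.4, 79.4 and 73.5 CPM in controls and 89.1, 102 and 106 CPM in MeHg (0.37 ± 0.08, adjusted p = 0.0466). Of 23 genes of intraflagellar transport, the traffic that Kif3 motors drive in cilia, 0 passed by edgeR (2 higher and 2 lower at an unadjusted p under 0.05), and their summed level was 658 to 698 CPM over the 6 libraries. The 2 with the smallest p were Ttc21b (-0.38 ± 0.10, adjusted p = 0.0733) and Dync2i2 (0.34 ± 0.11, adjusted p = 0.110).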

How the data were processed

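RNA of 6 cerebella was sequenced as paired reads of 150 bases, per the labels' protocols. The authors deposited a table of raw counts per gene and of FPKM per gene, with mm39 and DESeq2 named in the submitters' processing notes. The aligner, counter, annotation and strand setting were not given in the sources used here. Totals implied by the deposited FPKM exceed the count totals by 3.96% to 9.03%.

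From the counts, edgeR 4.0.16 (R 4.3.3) was run with TMM scaling, its own filter on low counts and the quasi-likelihood test over 16859 genes, with group as the only term. All adjusted p-values in the report are Benjamini-Hochberg values of that test unless another setting is named, the threshold was 0.05, and fold changes are MeHg over control. CPM values use TMM-scaled library sizes, and the level of 0.5 CPM used unscaled ones. FPKM served for levels between genes and shares within a complex. No replicates agreed within sampling noise (chi-square per degree of freedom 7.77 to 19.7).

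The kinesins, the gene lists and the tests were chosen with earlier results of these data known. By rule the text names kinesins that passed, the 12 with the smallest p, the 10 highest by FPKM, the most abundant of each family, all light chains and the 3 on either side of the level (26 of the set), and of each transport list the genes that passed or else the 2 with the smallest p. The other kinesins, Ppfia3 and the motif GTTGCC were chosen after values or sequences were seen. Promoter sequences are from RefSeq (GRCm38.p6) and were placed in GRCm39 by exact match. Alternatives were DESeq2 1.42.0, limma 3.58.1, other scalings, filters and pseudocounts (1 and 0.1), sex, replicate number and length terms, and leaving out libraries.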

Additional observations from a re-analysis of the deposited data

How the results depend on the processing

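With 3 libraries a group, counts of called genes moved with the setting. By edgeR 398 genes passed over the whole table (97 higher, 301 lower), of them 1 kinesin and 5 transport genes. DESeq2 size factors and limma-voom left these counts within 1.5 times. Upper-quartile scaling gave 197 genes (78, 119) and 1 transport gene; 75.6% of calls were lower by TMM and 60.4% here. Without a filter 2378 passed (1200, 1178), with 6 kinesins (3, 3) and 16 transport genes, and with a filter at 0.5 CPM 2 kinesins (1, 1). DESeq2 gave 1394 (569, 825), 7 kinesins (3, 4) and 13 transport genes. Limma on log2 FPKM gave 0 of each with either pseudocount (3874 and 3887 genes at an unadjusted p under 0.05), and so did the length offset (3583), under which the kinesin median was 0.0956. The labelled sex term gave 609 (193, 416), 3 kinesins (1, 2) and 7 transport genes. A threshold of 0.1 gave 1653 (637, 1016), 5 kinesins (3, 2) and 14 transport genes. Without both libraries numbered 2 there were 1723 (607, 1116), 8 kinesins (2, 6) and 21 transport genes. Leaving out 1 library gave 0 to 1091 genes (0 to 373 higher, 0 to 718 lower), 0 to 7 kinesins (0 to 2, 0 to 5), 0 to 13 transport genes and a kinesin median of -0.017 to 0.0486. Fewer samples enter these last fits, and those without MeHg replicate 2 leave only female-like MeHg libraries. Otherwise the cause was not tested.

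The replicate block gave 648 genes (258, 390), 2 kinesins (1, 1; Klc3 and Kif26b, adjusted p = 0.0323) and 8 transport genes. Libraries of the same number correlated at 0.193, 0.343 and -0.244 in their deviations from the group means, and not every library correlated best with its own number, so the numbers were not taken as pairs.

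Klc3 was positive in all 18 alternatives run but passed in 10, with values of 0.591 to 2.54; the lowest were 0.591 and 1.81 on log2 FPKM with pseudocounts 1 and 0.1, and leaving out 1 library gave 1.93 to 2.54. Sign changes were among kinesins near 0. Upper-quartile scaling gave Klc2 0.0324 and Kif5b 0.0103. Kif1a was -0.00333 by limma-voom, -0.0123 and -0.0125 on log2 FPKM with pseudocounts 1 and 0.1 (Kif11 -0.0039 with the latter), -0.00336 with the replicate block and -0.00325 with sex. The length offset gave Kif5b 0.0479 and Klc4 -0.0194. Without both libraries numbered 2, Kif1a was -0.1, Klc1 -0.00772 and Kif20a -0.146. Leaving out 1 library gave -0.0964 to 0.0738 for Kif1a, -0.0125 to 0.0347 for Klc1, -0.0215 to 0.0228 for Klc2, -0.0847 to 0.0165 for Kif5b, -0.16 to 0.206 for Kif11 and -0.0642 to 0.209 for Kif20a.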
